A study of Mus musculus with 6 samples.

Results

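Intergenic windows are 1 kb stretches of the mouse genome that lie more than 1 kb from any protein-coding or lncRNA gene of the RefSeq annotation. They were taken on the 19 autosomes from windows with at least 5 cytosine positions measured in all 6 libraries, and the level of a window is the unweighted mean of its positions in percent methylation. Of 24778 such windows, 2690 (10.9%) were intergenic, 6879 (27.8%) lay inside a gene and more than 1 kb from both its ends, here called gene interior, and 15209 (61.4%) lay within 1 kb of a gene end. The last 2 kinds together are called gene-associated. The choice used position and coverage and no methylation value.

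The assay was enhanced reduced representation bisulfite sequencing (eRRBS). It reads the CpG-rich ends of restriction fragments of genomic DNA after bisulfite conversion. The KI libraries came from mice of genotype IDH1+/lsl VavCre+, in which Cre driven by the blood-cell promoter Vav switches on a mutant Idh1 allele, and the Control libraries from IDH1+/+ VavCre+ littermates, so all 6 libraries carried the Cre. All mice were C57BL/6 males of 7 to 10 months, with 6 mice per group and 10 ng of DNA per library, and the labels do not say how the mice were combined. Long-term haematopoietic stem cells (LT-HSC, Lin- Sca+ Kit+ CD150+ CD48-), short-term haematopoietic stem cells (ST-HSC, Lin- Sca+ Kit+ CD150+ CD48+) and multipotent progenitors (MPP, Lin- Sca+ Kit+ CD150-) were sorted, and DNA methylation gives no reading of these surface markers. Each genotype and cell type was 1 library. There is thus no replicate spread, the 3 cell types are the only repeats of the genotype contrast, and no source used here says whether they came from the same mice.

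Most CpGs outside genes carry methylation in mammalian cells, while dense clusters of CpGs, called CpG islands, stay largely free of it. Islands sit at the start of many genes, and those far from annotated genes often belong to unannotated promoters, to small RNA genes or to enhancers. Normal IDH1 makes 2-oxoglutarate, which TET enzymes need to oxidise 5-methylcytosine, whereas the mutant enzyme makes 2-hydroxyglutarate, a competitor of it. The comparisons ask how such intergenic DNA is methylated, and how that goes with the Idh1 allele and with the step from stem cell to progenitor.

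The windows excluded protein-coding and lncRNA genes but could hold other RefSeq genes, and 279 of them (10.4%) did. MicroRNA genes lay in 9 windows, all of them under 20% methylated. The hairpins below, credited to RefSeq on GRCm38.p6, are shown because they carry measured cytosines themselves, and because Mir210 stood apart from the others. Capitals mark the bases whose methylation was measured in all 6 libraries, as a C on the strand of the microRNA or as the G opposite a C of the other strand.
Mir375: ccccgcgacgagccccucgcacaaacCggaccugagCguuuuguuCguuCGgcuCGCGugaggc
Mir760: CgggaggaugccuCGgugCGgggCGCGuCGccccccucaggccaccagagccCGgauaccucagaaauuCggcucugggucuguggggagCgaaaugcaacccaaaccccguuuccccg
Mir212: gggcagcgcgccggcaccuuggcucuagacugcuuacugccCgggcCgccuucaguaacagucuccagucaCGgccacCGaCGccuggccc
Mir210: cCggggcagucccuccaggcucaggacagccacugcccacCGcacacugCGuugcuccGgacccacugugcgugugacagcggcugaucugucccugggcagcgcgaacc

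Mir375, known from endocrine cells, lies on chromosome 1 from 74900658 to 74900721 with 9 measured positions. Mir760 lies on chromosome 3 from 122293585 to 122293703 with 15, and Mir212, which shares a cluster and a window with Mir132, on chromosome 11 from 75173388 to 75173478 with 8. Mir210, a microRNA induced by low oxygen, lies on chromosome 7 from 141221384 to 141221493 with 6. Over the 6 hairpins with any measured position there were 41 positions, and all 41 fell on a C or a G of a CpG in the RefSeq sequence, as their strand requires.

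The depth of the libraries was 38284759 to 53884467 reads, summed as coverage over cytosine positions, with a median of 27 to 45 reads per position and a minimum of 10. On the autosomes 546791 positions were measured in all 6. The median intergenic window held 391.5, 272 and 358 reads in KI LT-HSC, ST-HSC and MPP, against 396, 317 and 314 in Control. Reads of a window are summed over its positions in the same way. A read that covers several positions counts at each of them, so windows have fewer separate reads than these numbers. By the lane numbers in the deposited names, KI and Control libraries never shared a lane. Effects of lane and genotype cannot be told apart.

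Intergenic windows were mostly either highly methylated or nearly free of methylation. Their median level over the 6 libraries was 87.9%, against 59.5% for gene interiors and 3.30% for gene ends. At 80% or more stood 1510 windows (56.1%), under 20% stood 827 (30.7%), and 353 (13.1%) lay between, here called partly methylated. Of gene interiors 46.0% were at 80% or more and 10.3% partly methylated, and of gene ends 5.2% and 4.05%.

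**Figure D1:**
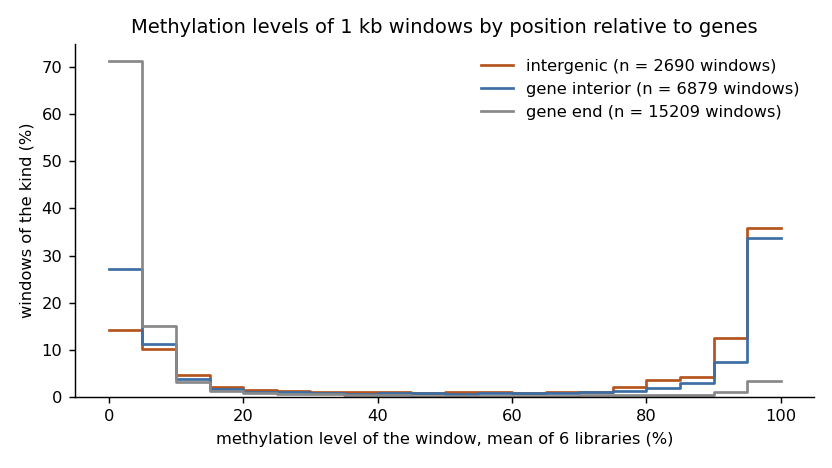
Share of windows (percent of each kind, vertical axis) by methylation level as the mean of 6 libraries (percent, horizontal axis, steps of 5 points) for 2690 intergenic, 6879 gene interior and 15209 gene end windows. Intergenic and gene interior windows pile up at both ends of the scale, and gene ends at the low end.

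In every library the intergenic windows were more methylated on average than the gene-associated ones. Their mean level was 62.0, 62.5 and 63.3% in KI, by stage from LT-HSC to MPP, and 61.2, 60.7 and 61.5% in the Control libraries of the same cell types. Gene-associated windows averaged 22.9, 23.9 and 24.4% in KI and 22.6, 22.4 and 22.8% in Control. The difference was 38.7 ± 0.26 percentage points (SD, n = 6 libraries; exact two-sided sign-flip permutation test, p = 0.031, the smallest that 6 libraries can give), with intergenic windows higher in 6 of 6. Its size rests on which windows are counted, since it was 19 points among windows with at least 10 positions.

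The level of an intergenic window went with the number of cytosines measured in it. The 909 windows with 5 positions averaged 77.0%, the 832 with 6 to 7 positions 70.6%, the 449 with 8 to 10 positions 60.1%, the 330 with 11 to 20 positions 27.9% and the 170 with over 20 positions 8.47%. Gene-associated windows of the same 5 classes averaged 58.4, 48.8, 31.0, 12.1 and 4.49%. At each number of positions the intergenic windows were thus more methylated on average than the gene-associated ones, which were not split here into interiors and ends. The median intergenic window had 6 positions, against 13 for the gene-associated ones, and the range was 5 to 133.

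The level also went with the distance to the nearest gene. Windows 1 to 5 kb away averaged 41.9% (n = 613), those 5 to 20 kb away 58.2% (n = 964), those 20 to 100 kb away 70.05% (n = 778) and those over 100 kb away 90.0% (n = 335). The share of windows under 20% was 54.0% in the nearest class, then 33.3% and 20.4%, and 4.78% in the farthest. The median number of positions was 7 in the nearest class and 6 in each of the others.

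**Figure D2:**
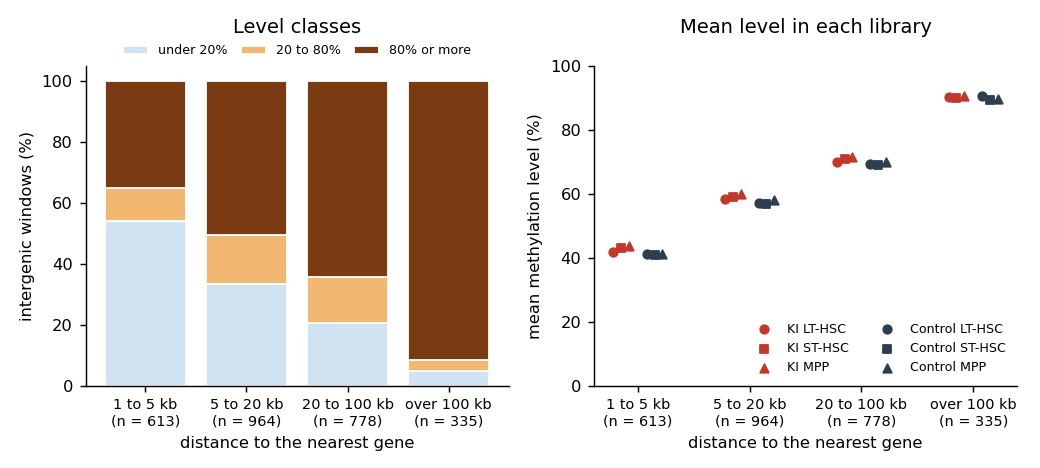
Left, share of intergenic windows (percent) in 3 classes of methylation level by distance to the nearest gene. Right, mean methylation level (percent) of the same windows in each library, with KI to the left of Control; in all 6 libraries the mean climbs with distance, to about 90% beyond 100 kb.

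Just inside and just outside the limits of the definition, the windows were as follows. The 188 windows over 1 and up to 2 kb from a gene averaged 35.2%, and the 727 windows that lay outside genes but within 1 kb of one averaged 14.8%. The 909 intergenic windows with 5 positions averaged 77.0%, and 1569 further intergenic windows with 4 positions averaged 81.0%. KI minus Control was 1.59 and 1.43 points in the first pair and 1.52 and 1.32 points in the second.

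Windows with many measured cytosines were mostly low in methylation, and those near microRNA genes serve as examples chosen after their values were seen. The window 2390 bases from Mir17hg, the host of the miR-17-92 cluster of growth-promoting microRNAs, held 95 positions on chromosome 14 from 115041001 to 115042000. It stood at 1.53, 2.52 and 2.76% in KI LT-HSC, ST-HSC and MPP, against 4.06, 1.33 and 1.59% in Control. A window 9023 bases from Mir155hg, the host of the immune microRNA miR-155, averaged 2.46% over 54 positions, and the window that holds Mir760 averaged 2.35% over 65. In none of the 3 was a library above 5%.

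Windows with tRNA and microRNA genes were nearly all under 20% methylated. Of 19 windows that hold tRNA genes, 18 were under 20%, with a median of 3.48%. The 9 windows with microRNA genes had a median of 3.91% and a range of 1.55 to 13.2%. The window of Terc, the RNA template of telomerase, averaged 3.46% over 31 positions. These windows held more cytosines than most, with medians of 8 positions for tRNA and 30 for microRNA genes. Of 5 windows with snRNA genes, 3 were under 20% and 2 at 80% or more. Pseudogene windows had a median of 94.4% over 173 windows, with 113 at 80% or more. All intergenic windows had a median of 87.9%, with 56.1% at 80% or more. The 43 windows with transcribed pseudogenes had a median of 11.7%.

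Mir210 was the most methylated of the hairpins printed above. Over its 6 positions the mean was 41.1, 43.3 and 42.5% in KI LT-HSC, ST-HSC and MPP, against 22.6, 25.3 and 27.2% in Control. The 3 KI libraries were all above the 3 Control libraries, and the means of KI were higher at 5 of the 6 positions. Single positions ranged from 0 to 81.8% in KI and from 0 to 42.0% in Control, on 11 to 152 reads each. The whole window, with 19 positions, stood at 16.2, 17.8 and 14.8% in KI, against 8.65, 10.2 and 11.6% in Control. This hairpin was singled out after its values were seen, and the difference has no test.

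The other hairpins were lower. Mir375 had 7.53, 0.483 and 4.87% in KI LT-HSC, ST-HSC and MPP, against 5.50, 2.15 and 4.68% in Control. Mir760 had 1.67, 2.68 and 2.20% in KI, against 3.02, 2.59 and 0.667% in Control, and Mir212 had 1.25, 4.84 and 0% in KI, against 1.15, 2.27 and 0% in Control. In all 3 the libraries of the genotypes overlapped. Mir203, with 2 measured positions, had 15.8, 12.5 and 13.6% in KI, against 13.2, 13.6 and 0% in Control, overlapping as well, and the single measured position of Mir193a was at 0% in each library.

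A few windows took a large part of the reads. The 4 adjacent windows at the ribosomal RNA pseudogene Rn18s-rs5 on chromosome 17, from 39843001 to 39847000, held 369 positions. They took 42.4% of the reads in intergenic windows, summed over positions. Their unweighted mean was 23.2, 19.6 and 21.4% in KI LT-HSC, ST-HSC and MPP, against 24.2, 23.1 and 23.6% in Control. Reads of near-identical ribosomal copies elsewhere can be placed here, so these levels are uncertain as values of this locus. In all, 8 windows had over 10 times the median coverage per position of 50.2 reads, and because every window counts once, leaving them out left the KI minus Control mean at 1.49 points.

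KI libraries were slightly more methylated than Control over intergenic windows in all 3 cell types, and most at the partly methylated ones. The difference, KI minus Control, was 0.822, 1.86 and 1.78 points by stage from LT-HSC over ST-HSC to MPP, a mean of 1.49 ± 0.58 points (SD over 3 cell types; exact sign-flip permutation test, p = 0.25, the smallest that 3 cell types allow). At partly methylated windows the KI libraries averaged 50.9, 54.2 and 55.8% in LT-HSC, ST-HSC and MPP, against 47.0, 47.4 and 50.9% in Control. That is 5.17 ± 1.45 points (exact permutation p = 0.25), higher in KI in 3 of 3 cell types. Windows under 20% differed by 0.565, 1.84 and 2.30 points, and windows at 80% or more by 0.247, 0.728 and 0.764 points.

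Against gene-associated windows, which pool gene interiors and gene ends, the genotype difference had no single direction. Over all windows it was larger at intergenic ones by 0.32 ± 0.15 points (exact permutation p = 0.25 over 3 cell types). Over all gene interiors KI minus Control was 0.961, 2.20 and 1.98 points in LT-HSC, ST-HSC and MPP. These values lay above the intergenic 0.822, 1.86 and 1.78 points in each cell type. Over all gene ends KI minus Control was 0.101, 1.21 and 1.46 points, below the intergenic values. Among partly methylated windows the intergenic difference was smaller than the gene-associated one by 2.31 points, at -2.31 ± 1.14 (exact permutation p = 0.25). The partly methylated gene interiors differed between KI and Control by 5.63, 10.9 and 7.94 points by stage from LT-HSC to MPP, and the gene ends by 4.41, 9.34 and 6.32 points. In each cell type the intergenic value lay below both. None of these tests could pass 0.05.

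**Figure D3:**
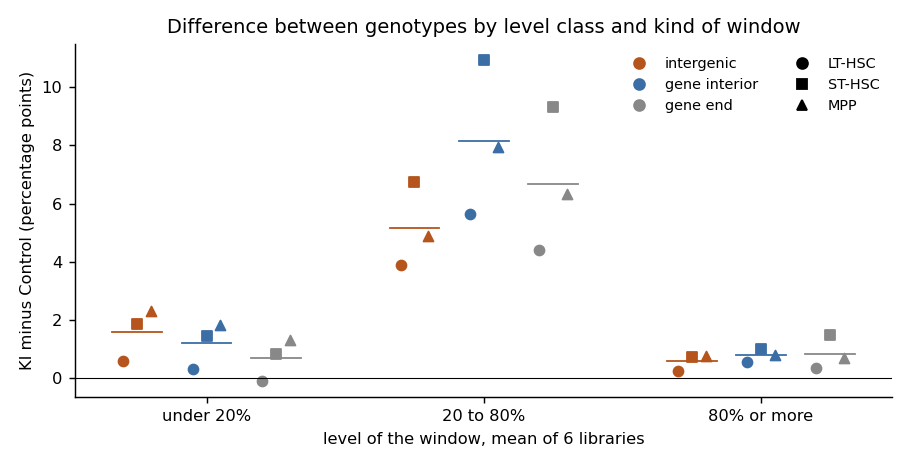
KI minus Control (percentage points) in each cell type for intergenic, gene interior and gene end windows, by methylation level of the window; bars are means of the 3 cell types. The partly methylated windows differ most in each kind, and the intergenic ones, at a mean of 5.17 points, less than the other kinds.

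By distance, KI minus Control averaged 1.84 ± 0.94 points at 1 to 5 kb from a gene, 1.71 ± 0.49 at 5 to 20 kb, 1.39 ± 0.54 at 20 to 100 kb and 0.41 ± 0.54 beyond 100 kb (SD over 3 cell types). The spreads of neighbouring classes overlap. Partly methylated windows made up 10.8, 16.3, 15.2 and 3.58% of these classes. On every chromosome the mean over cell types was higher in KI, between 0.481 points on chromosome 14 and 2.49 points on chromosome 5.

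Single windows that differed by at least 10 points between genotypes were more often higher in KI. In LT-HSC 202 intergenic windows were higher (7.51%, against 3.76% of all windows) and 98 lower (3.64%, against 1.63%). In ST-HSC 233 were higher (8.66%, against 5.08%) and 48 lower (1.78%, against 0.666%). In MPP 273 were higher (10.1%, against 5.46%) and 92 lower (3.42%, against 1.72%). Both directions were thus more frequent among intergenic windows than over all windows, and intergenic windows also held fewer positions each.

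The share that recurred in all 3 cell types was close to the background. At least 10 points higher in KI in each cell type were 26 intergenic windows (0.967%), against 0.9% of all windows, and 2 were lower (0.0743%), against 0.0525%. Of the partly methylated windows 21 of 353 were higher (5.95%), against 12.8% in gene interiors and 12.2% at gene ends. The KI libraries lay wholly above the Control libraries at 261 intergenic windows (9.70%, against 11.2% of all windows) and wholly below at 89 (3.31%, against 2.27%). With limma, 0 intergenic windows passed an adjusted p of 0.05 for genotype, as 2 of all 24778 windows did (0.00807%), and 229 had an unadjusted p under 0.05 (8.51%, against 7.01%). The 26 windows became 9 at positions with at least 20 reads and 5 among windows with at least 10 positions.

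The 26 windows lay on 11 chromosomes at 1021 to 87183 bases from the nearest gene, with a median of 14165 bases. Their mean difference over cell types ranged from 10.4 to 38.3 points with a median of 19.6. The KI and Control libraries did not overlap at 20 of them. A lncRNA was the nearest gene of 12, and 12 held 5 positions, the fewest allowed. The windows were chosen for a difference in each cell type, which favours genotypes that do not overlap. The lack of overlap is thus no separate support, here or at the single windows described below.

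The largest difference was at a window 43560 bases from Dennd3, which encodes a regulator of Rab GTPases, on chromosome 15 from 73468001 to 73469000. It stood at 69.1, 91.3 and 74.9% in KI LT-HSC, ST-HSC and MPP, against 36.8, 43.1 and 40.5% in Control. Reads summed over its positions were 121 to 202 per library. All KI libraries were above all Control libraries. In limma the log2 ratio (methylated over unmethylated reads) was higher in KI by 3.35 (SE 0.45, adjusted p 0.366).
Its 5 positions span 115 bases and split by strand. In Control MPP the 3 forward positions were at 2.44, 0 and 0% on 41 reads each, while both reverse positions were at 100% on 11 reads each. In KI MPP the forward positions were at 100, 61.1 and 50% on 18 reads each. The genotypes thus differed in MPP on the forward strand, and not in the same direction on the reverse strand, where KI had 76.3 and 87.2%.

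At a window 3045 bases from the lncRNA gene Gm42126, on chromosome 5 from 99857001 to 99858000, all 5 positions separated the genotypes. The level was 36.7, 46.4 and 37.6% in KI LT-HSC, ST-HSC and MPP, against 5, 14.9 and 0% in Control. The lowest KI library was more than 20 points above the highest Control library. Its positions lie on 1 strand within 36 bases and were read by nearly the same 18 to 49 reads per library, so they are close to a single measurement. limma gave a log2 difference of 3.77 (SE 0.64, adjusted p 0.406).

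Tmem126a, a gene of the inner mitochondrial membrane, was nearest to a window on chromosome 7 from 90461001 to 90462000, at 3798 bases. It stood at 33.9, 34.9 and 27.1% in KI LT-HSC, ST-HSC and MPP, against 9.95, 17.5 and 4.71% in Control. The 3 differences were close to each other, at 21.2 ± 3.4 points. Its 256 to 424 reads per library, summed over positions, were more than at the windows of Dennd3 and Gm42126.

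The window 27904 bases from Tcf15, a transcription factor gene of the embryonic mesoderm, lies on chromosome 2 from 152177001 to 152178000. Its 10 positions had 356 to 806 reads per library, summed over positions. It stood at 32.7, 49.7 and 60.4% in KI LT-HSC, ST-HSC and MPP, against 22.4, 16.5 and 30.5% in Control. The genotypes did not overlap, and KI had the higher mean at all 10 positions. The window 3414 bases from Sh2d1b2, which encodes an adaptor of natural killer cells, holds the transcribed pseudogene Gm6345 and lies on chromosome 1 from 170255001 to 170256000. It stood at 54.3, 36.6 and 34.7% in KI, against 29.7, 11.6 and 17.5% in Control. Its mean difference of 22.3 points was 9.70 when the reads of the window were summed.

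The remaining 5 of the 10 largest differences were nearest to Gm51502, Gm46565, Gm32897, Gm33309 and Zfp326, a zinc finger gene, with means of 21.6 to 30.4 points. Gm51502, on chromosome 7 from 136008001, was the most uneven, where KI exceeded Control by 50.2 points in LT-HSC, by 29.2 in ST-HSC and by 11.6 in MPP. Gm33309 and Zfp326 were the windows of the 10 where KI and Control overlapped. In limma the adjusted p of these 10 windows was 0.366 to 0.770.

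**Figure D4:**
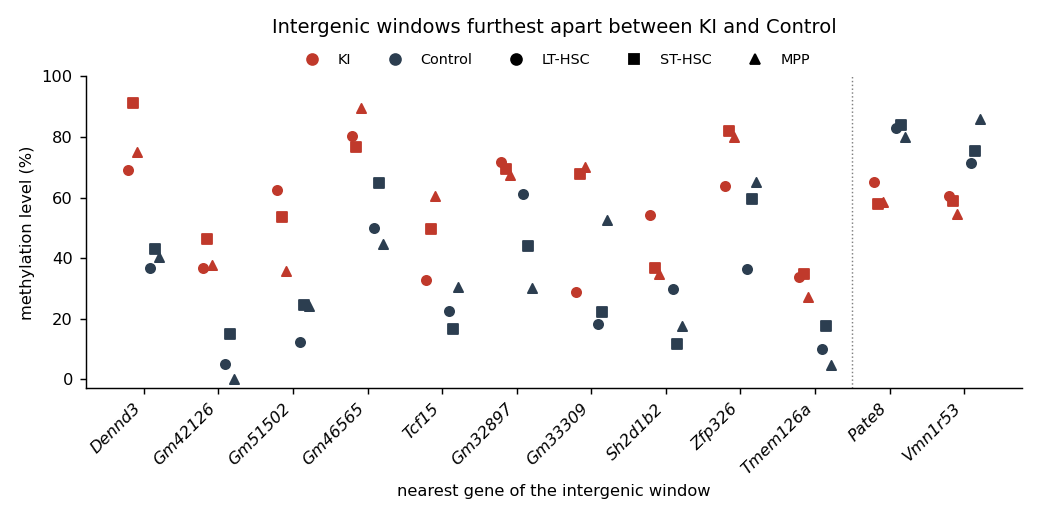
Methylation level (percent) in each library for the 10 intergenic windows with the largest mean difference toward KI (left of the dotted line) and both windows lower in KI (right), named by nearest gene, with KI to the left of Control. KI libraries lie above Control within each cell type on the left, by 38.3 points on average at Dennd3, and below on the right.

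Both windows that were lower in KI were nearest to genes of families known from reproductive and sensory tissue. The window 12278 bases from Pate8, of a family expressed in prostate and testis, lies on chromosome 9 from 36568001 to 36569000. It stood at 65.2, 57.8 and 58.4% in KI LT-HSC, ST-HSC and MPP, against 82.9, 84.0 and 80.1% in Control. The window 8563 bases from the vomeronasal receptor gene Vmn1r53, on chromosome 6 from 90233001 to 90234000, had levels of 60.6, 59.0 and 54.7% in KI, against 71.3, 75.5 and 85.8% in Control. In neither did the genotypes overlap, and limma's adjusted p was 0.587 at Pate8 and 0.654 at Vmn1r53. The 5 positions of the Pate8 window lie on 1 strand within 45 bases, on 17 to 45 reads each, so they are close to a single measurement. With positions of at least 20 reads, 0 windows were lower in KI.

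From LT-HSC to MPP, the mean over intergenic windows differed by little. MPP minus LT-HSC was 1.35 points in KI and 0.391 in Control, a mean of 0.87 ± 0.68 points (SD over 2 genotypes; exact permutation p = 0.5, the smallest that 2 genotypes allow). Partly methylated windows were higher in MPP by 4.86 points in KI and 3.85 in Control. The ST-HSC means of these windows, 54.2% in KI and 47.4% in Control, lay between LT-HSC and MPP in both genotypes.

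At least 10 points higher in MPP in both genotypes were 66 intergenic windows (2.45%), against 1.43% of all windows, and 27 were lower (1.00%), against 0.359%. Gene interiors had 2.59% higher and 0.596% lower, and of partly methylated windows 4.82% of the intergenic ones were lower, against 4.79% in gene interiors and 2.92% at gene ends. Higher in MPP were 12.7% of the partly methylated intergenic windows, against 20% in gene interiors and 13.8% at gene ends. Opposite steps of that size occurred as well. In KI higher and in Control lower were 18 windows (0.669%, against 0.436%), and the reverse held at 13 (0.483%, against 0.161%). Across the 2690 windows the steps of the genotypes had a Pearson r of 0.25 and a Spearman rho of 0.0917, as a description over windows that share 4 libraries. Counted in each genotype separately, with the windows shared by both included, 188 windows were higher and 70 lower in KI (6.99 and 2.60%, against 3.75 and 1.11% of all windows), and 245 and 200 in Control (9.11 and 7.43%, against 4.73 and 3.28%).

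limma called 0 intergenic windows between MPP and LT-HSC, as it called 0 of all windows (0%), and 250 had an unadjusted p under 0.05 (9.29%, against 7.41%). With a prior count of 5 in place of 1 it called 4 (0.149%, against 0.105% of all windows), all higher in MPP, which were the windows of Dars, Gm33926, Gm30217 and Begain. The 66 and 27 windows became 10 and 1 among the 620 intergenic windows with at least 10 positions.

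The 66 windows higher in MPP had a median mean difference of 17.7 points, in a range of 10.9 to 70.5. ST-HSC lay between LT-HSC and MPP at 45 of them in KI, at 45 in Control and at 32 in both. Of the 27 lower windows, with a median of -18.3 points, ST-HSC lay between at 20 in KI, at 17 in Control and at 12 in both. Both sets were chosen for LT-HSC and MPP lying apart, which by itself favours a ST-HSC value between them. No share over all windows is given, so the counts do not show an ordered step. Of the 26 windows higher in KI, 4 were also higher in MPP and 2 lower in MPP.

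**Figure D5:**
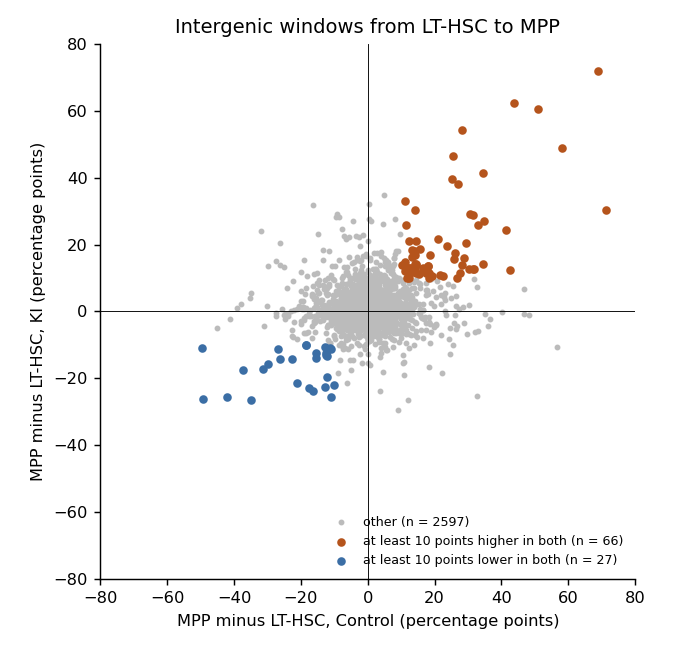
MPP minus LT-HSC (percentage points) in KI (vertical axis) against Control (horizontal axis), 1 point per intergenic window. As the mean of both genotypes, the 66 windows at least 10 points higher in both reach up to 70.5 points and the 27 lower ones down to -37.7.

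The largest step was at a window 22585 bases from Dars, the gene of aspartyl-tRNA synthetase, on chromosome 1 from 128440001 to 128441000. In KI the LT-HSC library had 26.3%, the ST-HSC library 74.4% and the MPP library 98.3%. In Control the LT-HSC library had 29.3%, the ST-HSC library 32.6% and the MPP library 98.3%. The genotypes were alike in LT-HSC and MPP and apart in ST-HSC. All 5 positions were higher in both MPP libraries than in either LT-HSC library. They lie on 1 strand, and all but the last lie from 128440596 to 128440635, close to a single measurement. These had 10 to 15 reads each in the LT-HSC libraries and 10 to 12 in Control MPP. The last position, on 60 to 132 reads, stood at 45 and 55.2% in KI and Control LT-HSC, against 97.0 and 100% in MPP. The mean step of 70.5 points was 58.8 when reads were summed. In limma the adjusted p for MPP against LT-HSC was 0.210.

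At the window 14281 bases from the lncRNA gene Gm30217, on chromosome 11 from 52333001 to 52334000, levels were 33.4, 54.5 and 93.9% in KI, by stage from LT-HSC to MPP, and 47.4, 50.7 and 98.5% in Control. All 7 positions separated MPP from LT-HSC. limma gave a log2 difference of 5.06 (SE 0.58, adjusted p 0.152). At the window 2604 bases from Gm33926, on chromosome 7 from 67443001 to 67444000, levels were 8.82, 43.8 and 71.0% in KI and 7.54, 16.8 and 51.2% in Control. All 6 positions separated MPP from LT-HSC, and in ST-HSC the KI library was again the higher.

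Begain, a gene expressed mainly in brain, lies 2759 bases from a window on chromosome 12 from 109071001 to 109072000. In KI the window stood at 1.82, 14 and 50.6% by stage from LT-HSC to MPP, and in Control at 5.26, 6.25 and 63.3%. Its 5 positions lie on 1 strand within 46 bases. In Control MPP 3 of them were at 100% and the other two at 0 and 16.7%, all on the same 12 reads.

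Among further windows higher in MPP, the window of Fras1, an extracellular matrix gene, had a step of 54.4 points in KI and 28.1 in Control. The window of Gm33309 had 41.3 points in KI and 34.4 in Control, and that of Smg9, a gene of nonsense-mediated mRNA decay, had 46.5 in KI and 25.6 in Control. The Gm33309 window, on chromosome 3 from 101713001 to 101714000, was also among the 10 largest differences between KI and Control. It stood at 28.6, 67.7 and 70% in KI LT-HSC, ST-HSC and MPP, against 18.3, 22.3 and 52.7% in Control.

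Lower in MPP was most of all a window 9303 bases from Ngfr, a neurotrophin receptor gene, on chromosome 11 from 95597001 to 95598000. It stood at 52.8, 35.2 and 26.7% in KI, by stage from LT-HSC to MPP, and at 63.4, 38.1 and 14.1% in Control. Levels stepped down in order in both genotypes. The window 14699 bases from Spindoc, on chromosome 19 from 7399001 to 7400000, holds the pseudogene Rab11b-ps2 and stood at 66.6, 45.5 and 41.0% in KI and at 66.4, 34.2 and 24.2% in Control. Its 6 positions lie on 1 strand within 46 bases, on 13 to 66 reads each, and are likewise close to a single measurement. Gm30340, Kntc1, a gene of the kinetochore, 5330429C05Rik and Gm21859 had mean steps of -30.8, -30.2, -27.5 and -24.3 points. The step at Gm30340 was -20.0 points when reads were summed. Of all 27 windows lower in MPP, 17 were lower by more in Control and 10 by more in KI, a description with no test.

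Intergenic windows near developmental genes were mostly unmethylated. Of 58 homeobox genes on a list, 16 were the nearest gene of 26 windows within 100 kb, and 24 of these 26 (92.3%) were under 20%, with a median of 10.2%. All intergenic windows within 100 kb of a gene numbered 2355, with a median of 81.4% and 34.4% under 20%. The 2355 were not matched to the 26 by distance. Most of the 26 lay 1 to 5 kb from the gene. Of all intergenic windows at that distance, 54.0% were under 20%, with a median of 13.9%. The median KI minus Control of the homeobox windows was 1.77 points, against 0.787 points for the 2355, again not matched by distance. At least 10 points apart in all cell types or in both genotypes were 0 of the 26, against 109 of the 2355 (4.63%), a share at which few of 26 would be counted. An example was a window 5487 bases from En1, a patterning gene of the midbrain, with 2.90, 3.89 and 5.68% in KI LT-HSC, ST-HSC and MPP against 5.28, 4.73 and 1.63% in Control.

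Windows near genes of the stem cell itself were few. The list of regulators of stem and progenitor cells gave 8 windows at 6 of its 27 genes, with 5 under 20% and a median of 5.33%. A window with 25 positions, 7350 bases from Meis1, a transcription factor needed for stem cell maintenance, stood at 2.07, 2.14 and 2.40% in KI and at 1.43, 2.73 and 0% in Control. A window 9927 bases from Runx1, a regulator of blood formation, stood at 100, 92.9 and 96.5% in KI and at 100% in each Control library. Of the 8, 0 were counted as 10 points apart, too few windows to set against the 4.63% above, and their median KI minus Control was -0.61 points.

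The 5 lymphoid windows, at 3 of 21 genes, were all under 20%, with a median of 11.2%. The window 1856 bases from Bcl11b, a transcription factor of T cell commitment, on chromosome 12 from 108006001 to 108007000, was the one of them past 10 points in both genotypes. It stood at 15.1, 20.1 and 4.94% in KI, by stage from LT-HSC to MPP, and at 24.1, 2.78 and 5.54% in Control. Its mean step of -14.4 points was -2.76 when reads were summed. With 1 of 5 counted, the lymphoid windows are too few to set against the 4.63% above. Myeloid genes gave 2 windows, at Klf4 and Lyz2, erythroid and megakaryocyte genes 1, at Gp1bb, genes of methylation and IDH 1, at Kdm4c, and germline genes 0.

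Imprinted genes, which are methylated on the allele of 1 parent, gave 6 windows at 5 of 38 genes, with a median of 15.9%. The window 40816 bases from Slc38a4, an amino acid transporter, on chromosome 15 from 96953001 to 96954000, was higher in KI in each cell type. It stood at 26, 26.7 and 28.9% in KI LT-HSC, ST-HSC and MPP, against 7.36, 13.4 and 10.8% in Control, a difference of 16.7 ± 2.9 points. The genotypes did not overlap and limma gave an adjusted p of 0.406. The window 9951 bases from Kcnq1, a potassium channel gene of an imprinted domain, lies on chromosome 7 from 143437001 to 143438000 and had 22 positions. It stood at 26.5, 42.6 and 44.6% in KI and at 25.4, 26.5 and 39.6% in Control, so that MPP exceeded LT-HSC by 18.1 points in KI and 14.2 in Control. MPP was higher at 15 of the 22 positions in KI and at 12 in Control. The mean step of 16.2 points was 11.7 when reads were summed.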

How the data were processed

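Each library had a deposited table with 1 line per cytosine position. Per the file headers it holds the coverage, a count of reads, and the percentages of C and of T, in percent of those reads. Per the submitters' processing notes the tools were Bismark 0.10.0, SAMtools 1.0 and methylKit 0.9.1, and the build mm10. No source used here gives duplicate removal or the conversion rate. Coverage times percent C gave whole methylated reads at 100% of positions, within 0.01% of the coverage. Strands were kept apart, and positions in 1 window share reads, so no binomial interval is given and read numbers cover counting error only.

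Gene positions came from RefSeq on GRCm38.p6, the build of mm10 (33073 autosomal protein-coding and lncRNA genes). No genome was used here, so window sequences are not shown. A window counted as called when KI and Control differed by 10 points or more the same way in every cell type, or MPP and LT-HSC in both genotypes. Mean levels were compared by exact two-sided sign-flip permutation over libraries, cell types or genotypes. limma 3.58.1 in R 4.3.3 was fitted over all 24778 windows on log2 of methylated over unmethylated reads, with a prior count of 1, a variance trend, and genotype and cell type as terms, with Benjamini-Hochberg adjustment, after a test on simulated data.

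Named windows were the 10 highest and 6 lowest called for genotype, the 8 highest and 6 lowest called for MPP against LT-HSC, any called by limma, and, per list, called windows within 100 kb of a list gene, up to 3, and up to 4 imprinted windows at 30 to 70%. Only 2 windows were lower in KI. A window that the rule names for MPP is not reported here. Other genes served as examples of their list. The windows, lists and tests were chosen with earlier results of these data known. Alternatives were positions with at least 20 reads, at least 10 positions, genes extended by 5 kb, summed reads, thinning to 10 reads, other sizes of difference, a Fisher exact test, adjacent windows joined, other limma settings, and leaving out libraries. Leaving out windows of very high coverage was added after seeing the data.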

Additional observations from a re-analysis of the deposited data

Results flagged for a closer look

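Windows at 80% or more went opposite ways between genotypes from LT-HSC to MPP. MPP minus LT-HSC was 0.107 points in KI and -0.410 points in Control. Windows over 100 kb from a gene did likewise, at 0.222 points in KI and -0.833 points in Control. For the same distant windows, KI and Control differed (KI minus Control) by -0.174 points in LT-HSC, and by 0.518 and 0.881 points in ST-HSC and MPP. Each value compares 1 library with 1 other, and these differences between groups were not tested.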

How the results depend on the processing

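The mean differences kept their direction under every alternative run. Windows higher in KI, lower in KI, higher in MPP and lower in MPP numbered 9, 0, 28 and 5 with at least 20 reads per position, 5, 1, 10 and 1 with at least 10 positions, 88, 15, 157 and 74 at 5 points, and 2, 0, 17 and 4 at 20 points. Those with fewer or more windows follow from stricter or looser rules. With an added Fisher exact test, 12 were lower in MPP. Leaving out 1 cell type gave 52 to 79 windows higher and 7 to 13 lower in KI, as a rule over fewer libraries is easier to meet. Leaving out 1 library gave 38.6 to 38.8 points between intergenic and gene-associated windows, with an exact permutation p of 0.0625, the smallest that 5 libraries allow. With a prior count of 5, limma called 4 intergenic windows between MPP and LT-HSC (0.149%), against 26 of all 24778 windows (0.105%). The cause of these last changes was not tested. For the 29 named results, 97 of 107 recomputed values moved by less than the spread and 0 changed sign. These results were chosen for large differences in the same reads, so the tally is no separate support. For the 13 results on genotype, leaving out a cell type could not change the sign, since each cell type had to differ the same way. Only 7 results could be recomputed with at least 20 reads per position, and only 3 with at least 10 positions. No paired analysis was possible because each group was 1 library with no replicate number, apart from the pairing by cell type and by genotype used throughout. The median window held 6 positions and 272 to 396 reads per library, summed over positions, which limits the precision of single windows.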
